A study of Homo sapiens with 16 samples.

Results

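Zinc finger genes form the largest family of transcription factor genes in the human genome, and many of them lie on chromosome 19. Their messages were read here in metastatic and in HNRNPC-deficient breast cancer cells. Members were the protein-coding genes on chromosome 19 whose symbol is ZNF or ZFP followed by digits. The annotation (GENCODE release 44, hg38) holds 254 such genes, and 181 of them were among the 10823 transcripts listed in at least 1 of the 2 tables. The LM2 table lists 180 of its 10799 transcripts as members, the knockdown table lists 80 of its 8980, and 79 genes are in both. For 224 of the 10823 transcripts no annotation was matched, so a few zinc finger genes may be missing from these counts.

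A C2H2 zinc finger is a short fold held by a zinc ion between paired cysteines and paired histidines, and each finger reads a few bases of DNA. Most of these genes encode a KRAB domain followed by an array of fingers. KRAB binds the co-repressor TRIM28 (KAP1), which brings the histone methyltransferase SETDB1 and HP1 proteins to the bound DNA, very often a transposable element. The genes arose by repeated tandem duplication, which left them in clusters of near copies. ZFP36 meets the naming rule but is of another kind: it encodes tristetraprolin, a CCCH-type protein that binds AU-rich mRNA and promotes its decay.

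All cells derive from MDA-MB-231, a human breast cancer line that lacks the oestrogen, progesterone and HER2 receptors. Parental cells (poorly metastatic) were set against MDA-LM2 (LM2), a lung-metastatic derivative of the same line. For the knockdown, sgControl and sgHNRNPC cells both carried the CRISPR interference effector dCas9-KRAB, itself built with a KRAB domain, and differed in the guide: a control guide or a guide against HNRNPC, a nuclear protein that binds U tracts in RNA. Each line gave 2 lysates, each sequenced as ribosome-protected footprints (RPF) and as RNA, which makes 16 libraries in 8 groups of 2.

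Deposited values are normalised per library, and the RNA values of a library summed to between 7023010 and 8326050 for parental and LM2 cells, and to between 5415890 and 5559040 for the knockdown lines. RPF values summed to between 650736 and 679726 and to between 158011 and 167928, and their depth in reads is unknown. The lowest mean RPF value of a listed transcript was 2.004 in the LM2 table and 2.002 in the knockdown table, so a zinc finger gene that is silent in these cells is not listed. HNRNPC RNA was 2162 and 2146 in the sgControl libraries and 1147 and 1183 in the sgHNRNPC libraries, a difference of −0.89 ± 0.05 on the log2 scale (SE). It was 2768 and 2664 in parental and 2197 and 1930 in LM2 libraries (−0.40 ± 0.12, limma adjusted p = 0.0547). Of the markers checked, VIM, CD44, AXL and MET were listed at or above the 88.2 percentile of RNA in both tables, ESR1, PGR, FOXA1 and CDH1 were in neither, and EPCAM was low. No marker of blood or endothelium was listed. Of the fibroblast markers, COL1A1 (mean RNA 372) and PDGFRB (30.7) were in the LM2 table alone.

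The members were alike in structure. The median member encoded 12 C2H2 fingers (0 to 36) in a coding sequence of 1785 nt, with a 3′ UTR of 1646 nt and 4 exons, against a median of 9 exons over all listed genes. A short KRAB pattern was found in 135 of 181 members, or 74.6%, against 36.8% of the 185 ZNF or ZFP genes on other chromosomes. The pattern is narrow and misses some KRAB genes. ZNF69 and ZFP36 had no C2H2 match in the listed transcript.

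Shared sequence decides how well reads can be assigned to 1 gene. The 30-mers of the coding sequence that also occur in another mRNA made up a median of 9.15% in members and 0.278% in ZNF or ZFP genes elsewhere, and 58 members exceeded 20% (32.0%, against 7.02% of all listed genes). ZNF709 reached 100%. The 3 stretches below are shown as widely shared coding 30-mers, taken by the number of listed members that hold them and written with T for U. A 30-mer was passed over if most of its members already held a stretch chosen before it. Capitals mark the codons of the last residues of the linker between neighbouring fingers (glycine, glutamate, lysine, proline), as far as the stretch holds them.
Shared 1, in 19 members including ZNF91 and ZNF93: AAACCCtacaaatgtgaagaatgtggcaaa
Shared 2, in 19 members including ZNF468 and ZNF845: GGAGAGAAACCTtacaaatgtgaagaatgt
Shared 3, in 17 members including ZNF146 and ZNF844: tcacactGGAGAGAAACCCtatgaatgtaa
Reads from such stretches can be counted for the wrong gene, and values of members above 20% are uncertain for that reason. Exons of 55 members also overlap another annotated gene on the same strand, and those of 36 overlap one on the opposite strand.

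Zinc finger mRNAs were scarce. In the LM2 table the median RNA level per kb of mRNA was 17.2 for members, 28.6 for ZNF or ZFP genes elsewhere, 229 for other genes of chromosome 19 and 76.2 for all listed genes. In all, 90.6% of the 180 members lay below the median of all genes. In the knockdown table the medians were 29.2 for members, 34.6 for ZNF or ZFP genes elsewhere, 72.3 for other genes of chromosome 19 and 69.1 for all genes, and 97.5% of the 80 members lay below the last of these. The highest members per kb were ZNF844 (454) and ZNF787 (339) in the LM2 table and ZNF146 (300.0) in the knockdown table. ZNF146, also known as OZF, encodes fingers with no KRAB domain. ZNF844 shares 99.9% of its coding 30-mers and overlaps other annotated genes, so its level is uncertain. Because the RPF values were low too, with a median mean of 5.63 and 2.77 per transcript, 31 members in the LM2 table and 2 in the knockdown table reached the mean of 10 in RPF and RNA that the RPF and TE tests required.

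**Figure D1:**
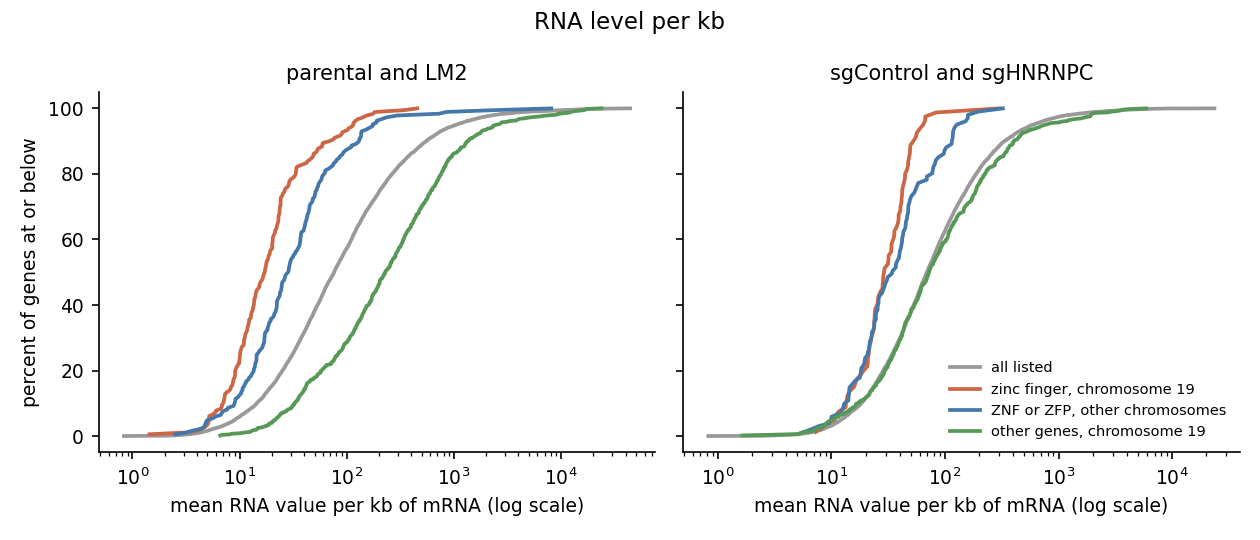
Cumulative share of genes (percent) against mean RNA value per kb of mRNA (log scale), for the parental and LM2 libraries (left) and the sgControl and sgHNRNPC libraries (right). The curve of the zinc finger genes of chromosome 19 lies to the left of that of all listed genes, with medians of 17.2 against 76.2 on the left and 29.2 against 69.1 on the right.

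The first comparison asked which zinc finger messages differed between metastatic LM2 cells and their parental line. Of 180 members, 0 were higher and 2 were lower in LM2 RNA (limma, Benjamini-Hochberg adjusted p under 0.05), against a background of 6.61% of all 10799 transcripts called higher and 10% called lower. At an unadjusted p under 0.05 there were 26 of the 180 members, beside 3507 of all 10799 transcripts. ZNF114 RNA was 85.3 and 88.9 in parental and 36.6 and 46.1 in LM2 libraries. All LM2 values of ZNF114 were below the parental ones, with a change of −1.06 ± 0.20 (log2, SE, limma adjusted p = 0.00996, mean fold 0.475). ZNF428 RNA was 282 and 239 in parental and 181 and 144 in LM2 libraries. It fell by 0.68 ± 0.17 (limma adjusted p = 0.0268) without overlap between the lines. In bulk libraries such as these, fewer cells that express a gene and less of its RNA per cell cannot be told apart. ZNF428 has 1 C2H2 match and overlaps SRRM5 on the opposite strand.

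Leaving out parental replicate 1 ended the call of ZNF428 (−0.56, limma adjusted p = 0.217). The LM2 libraries differed from each other more than the parental ones did: the median absolute difference between replicates over members was 0.308 in LM2 and 0.162 in parental RNA (log2). Without LM2 replicate 1 the fit called 17 members higher and 19 lower, and without LM2 replicate 2 it called 2 higher and 18 lower, while the calls over all transcripts rose to 2048 higher and 2998 lower, and to 1450 and 1918. In these fits the lone LM2 library is assumed to vary like the parental pair, which differed less, so the larger counts are not more reliable.

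The 3 largest rises did not pass the test. ZNF441 RNA was 7.75 and 20.0 in parental and 25.4 and 35.5 in LM2 libraries, a difference of 1.19 ± 0.43 (limma adjusted p = 0.0937). ZNF93, a KRAB repressor of LINE-1 retrotransposons, was 19.9 and 29.98 in parental and 44.2 and 47.0 in LM2 libraries, a difference of 0.87 ± 0.26 (limma adjusted p = 0.057). ZNF181 differed by 0.72. For ZNF441 and ZNF93 the lines did not overlap, but the spread between replicates was wide against the difference.

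Other members with known roles did not pass the test either. ZNF274 binds the 3′ ends of other zinc finger genes and recruits SETDB1 there. Its RNA was 313, 308, 301 and 302 across parental and LM2 libraries (−0.04 ± 0.12). ZNF146 was at 373, 392, 339 and 439, with overlap between the lines (0.01 ± 0.15). ZNF331, a KRAB gene often methylated in tumours, was at 115, 108, 114 and 137 (0.16 ± 0.16). ZNF224, a KRAB repressor of the aldolase A gene, was at 37.7 and 41.0 in parental and 47.9 and 52.3 in LM2 libraries, without overlap (0.34 ± 0.21). ZNF420, a KRAB protein that restrains p53, was at 22.1, 21.0, 19.7 and 24.8. ZFP36 was at 42.1 and 43.97 against 37.6 and 41.7.

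As a group, members had a median RNA change of −0.04 against −0.02 for all transcripts and a range of −1.06 to 1.19. The LM2 libraries lay on either side: the median of members minus that of all was 0.16 without LM2 replicate 1 and −0.11 without LM2 replicate 2. With all libraries in the fit, the 185 ZNF or ZFP genes elsewhere had a median of 0.10, with 15 higher and 3 lower. The 566 other genes of chromosome 19 had a median of −0.24, with 11 higher and 101 lower. Neither of these lists was recomputed with a library left out. Scaling each library to the same total instead moved the median of all transcripts from −0.02 to 0.15 and that of members to 0.13. On that scale 4 members were higher and 1 lower, with 1398 higher and 674 lower over all transcripts in place of 714 and 1082.

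Along the chromosome the change was uneven. Annotated members were split wherever neighbours lay more than 1 Mb apart, which gave 7 clusters of at least 10 genes (numbered from the short-arm end). Cluster 2 (chr19:11483427-12640098) had a median of 0.18 with 14 of 19 members above 0. Cluster 3 (chr19:19668796-24129968), which holds ZNF91 and ZNF93, also had a median of 0.18 with 16 of 21 above 0. Clusters 1, 4 and 5 had medians of 0.07, 0.06 and −0.11. Towards the end of the long arm, cluster 6 (chr19:51571283-53580269) had a median of −0.09 with 12 of 32 above 0. Cluster 7 (chr19:55476617-58481230) had a median of −0.16, and 8 of its 44 members were above 0. In 3 spans with more than 2 other listed genes, these had lower medians than the members: −0.35 over 9 genes in cluster 7, −0.28 over 13 in cluster 5 and −0.14 over 21 in cluster 1. No test was made of these differences, and neighbours share sequence and position. Centred on all transcripts, LM2 replicate 1 alone gave −0.06 and 0.08 for clusters 2 and 3 and −0.26 and −0.21 for clusters 6 and 7, and LM2 replicate 2 alone gave 0.37 and 0.37 against 0.15 and −0.04. Clusters 2 and 3 were above clusters 6 and 7 in each LM2 library, at different heights. Each LM2 library was set against the same mean of the parental libraries, so the values of the LM2 libraries are not independent.

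**Figure D2:**
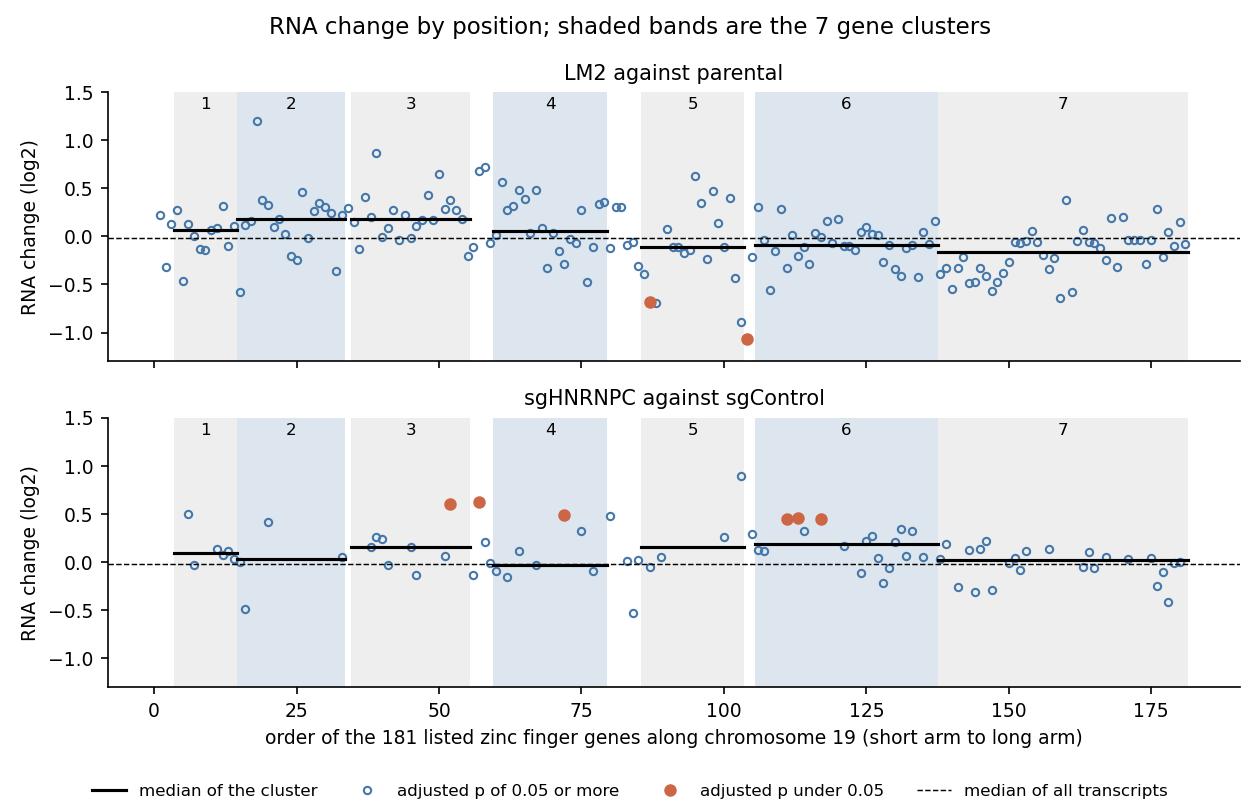
RNA change (log2) of each listed zinc finger gene against its order along chromosome 19, for LM2 against parental (top, 180 genes) and sgHNRNPC against sgControl (bottom, 80 genes). Bars are medians of the 7 shaded clusters, filled points are genes with limma adjusted p under 0.05, and the dashed line is the median of all transcripts. In the top panel the medians go from 0.18 in clusters 2 and 3 to −0.16 in cluster 7.

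The second comparison asked which of these messages differed after HNRNPC knockdown. Of 80 members, 6 were higher and 0 lower in sgHNRNPC RNA, or 7.5%, against a background of 3.41% of all 8980 transcripts higher and 6.64% lower (limma, adjusted p under 0.05). At an unadjusted p under 0.05 there were 18 of the 80 members, beside 2018 of all 8980 transcripts. None of the 101 listed ZNF or ZFP genes elsewhere passed, with 6 at an unadjusted p under 0.05. The median change was 0.06 for members, −0.02 for ZNF or ZFP genes elsewhere, −0.05 for the 494 other genes of chromosome 19 and −0.02 for all transcripts, and 57 members lay above the median of all. All 6 raised genes matched the KRAB pattern, as did 55 of the 80 members listed.

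ZNF91 is a KRAB protein with 32 finger matches that represses SVA retrotransposons (chr19:23304991-23395471, minus strand). Its RNA was 188 and 219 in sgControl and 297 and 320 in sgHNRNPC libraries. It rose by 0.60 ± 0.10 with no overlap (mean fold 1.52, limma adjusted p = 3.99e-06), and kept its call with each library left out in turn. ZNF91 shares 30.5% of its coding 30-mers with other mRNAs.

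ZNF480 RNA was 191 and 202 in sgControl and 244 and 293 in sgHNRNPC libraries, and rose by 0.45 ± 0.11 (limma adjusted p = 0.00198). ZNF841 was at 148 and 129 against 199 and 184, and rose by 0.46 ± 0.13 (limma adjusted p = 0.00792). ZNF614 was at 93.2 and 94.2 against 120 and 137, and rose by 0.45 ± 0.16 (limma adjusted p = 0.0448). These genes span chr19:52012765-52325922 within cluster 6, where 15 of 18 listed members were above 0 and the median was 0.19. Clusters 3 and 5 each had a median of 0.16, with 6 of 8 and 3 of 4 members above 0. Clusters 1, 2, 4 and 7 had medians of 0.10, 0.03, −0.03 and 0.02. ZNF841 overlaps ZNF432 on the same strand, while ZNF480, ZNF841 and ZNF614 each share less than 20% of their coding 30-mers.

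ZNF302 RNA was 71.0 and 60.0 in sgControl and 108 and 95.5 in sgHNRNPC libraries, and rose by 0.63 ± 0.18 (limma adjusted p = 0.0106). ZNF585B was at 115 and 129 against 179 and 165, and rose by 0.49 ± 0.14 (limma adjusted p = 0.00828). Their shares of common 30-mers were 23.7% and 54.7%. For each of the 6 genes both sgHNRNPC libraries were above both sgControl libraries. They were picked by the test on these same libraries, so this order adds nothing to the calls.

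The other 5 calls each rested on at least 1 library. ZNF480 lost its call without sgHNRNPC replicate 2 (0.31, limma adjusted p = 0.229). ZNF841 lost it without sgControl replicate 2 (0.37, limma adjusted p = 0.113) or sgHNRNPC replicate 1 (0.41, limma adjusted p = 0.13), and ZNF302 without the same libraries (0.51 and 0.54, limma adjusted p = 0.115 and 0.168). ZNF585B lost it without sgControl replicate 1 (0.41, limma adjusted p = 0.102) or sgHNRNPC replicate 1 (0.43, limma adjusted p = 0.136). ZNF614 lost it without any 1 of the 4 libraries (0.36 to 0.55). Fewer members were called higher with any 1 library left out, and fewer of all transcripts were called higher as well. In each such fit the lone library is assumed to vary like the pair of the other line. Leaving out sgControl replicate 1 took the median of members minus that of all transcripts from 0.08 to 0.02, and leaving out sgControl replicate 2 took it to 0.14. Among the 52 members that share at most 20% of their 30-mers, 3 were called higher and the median change was 0.06.

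**Figure D3:**
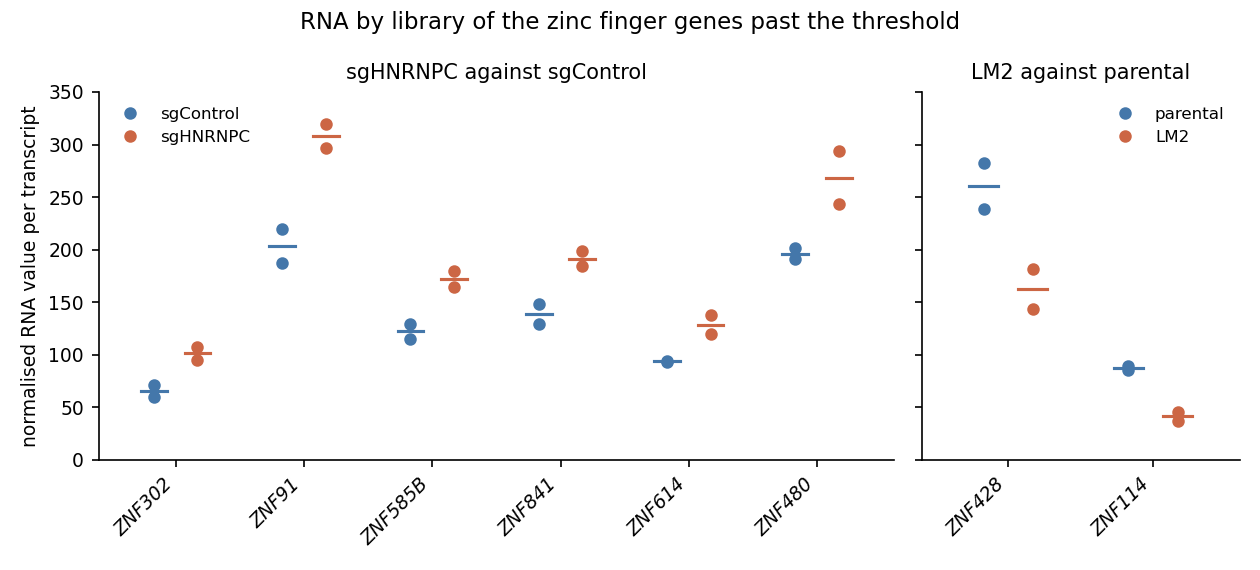
Normalised RNA value per transcript in each library (points) with the mean of the 2 libraries (bars), for the zinc finger genes past the threshold in the knockdown (left) and in LM2 (right). All 6 genes on the left are higher in both sgHNRNPC libraries, and both genes on the right are lower in both LM2 libraries. The genes were picked by the test on these same libraries.

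The other members with values given here did not pass. ZNF296, which encodes a finger protein with no KRAB pattern match here, had the largest difference (0.89 ± 0.40) at RNA values of only 7.42 and 13.5 against 17.7 and 21.4. ZFP36 was at 54.0 and 76.6 in sgControl and 99.8 and 80.9 in sgHNRNPC libraries (0.48 ± 0.19, limma adjusted p = 0.0926). ZNF93, which lies in cluster 3 with ZNF91, was at 69.9 and 72.4 against 83.9 and 87.7 (0.27 ± 0.18). ZNF274 was at 160 and 178 against 179 and 169, with overlap (0.04 ± 0.13). ZNF146 was at 1014 and 1057 against 975 and 971 (−0.09 ± 0.06). The lowest difference was that of ZNF574, at 86.9 and 80.7 against 66.2 and 50.7 (−0.52 ± 0.19, limma adjusted p = 0.0684).

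HNRNPC binds runs of U in introns and 3′ UTRs, so the transcribed strand of the raised genes was searched for them. The windows below are shown as the longest U run (written as T, capitals, cut at the window's end) in 4 of the 6 raised genes, from hg38.
ZNF91, intron, chr19:23380277-23380306, minus strand, run of 36: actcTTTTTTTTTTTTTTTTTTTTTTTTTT
ZNF480, intron, chr19:52319808-52319837, plus strand, run of 24: tgtgTTTTTTTTTTTTTTTTTTTTTTTTaa
ZNF614, intron, chr19:52017692-52017721, minus strand, run of 18: aagaTTTTTTTTTTTTTTTTTTagactgag
ZNF302, intron, chr19:34680987-34681016, plus strand, run of 9: tttcTTTTTTTTTctacatttgtggagagg
The longest runs of the other raised genes were 22 in ZNF841 (intron) and 29 in ZNF585B (outside the listed transcript). ZNF114 and ZNF428, lower in LM2, had intronic runs of 22 and 18. Runs differed widely among the raised genes, and ZNF302 held none of 12 or more. The density of U runs of at least 12 per 10 kb of gene had a median of 2.44 in members, 1.88 in ZNF or ZFP genes elsewhere, 2.18 in other genes of chromosome 19 and 1.69 in all listed genes. Against the RNA change after knockdown, Pearson r was −0.10 and Spearman rho −0.04 across the 80 members, which share sequence and libraries. Against the RNA change in LM2 they were 0.21 and 0.26 across 180 members, and 0.03 and 0.06 across all 10562 transcripts with a density. Across these 180 members the same measures were 0.216 and 0.268 for 3′ UTR length, and 0.271 and 0.205 for finger matches. They were 0.156 and 0.216 for shared 30-mers, 0.0205 and 0.108 for the density of A runs, and −0.121 and −0.135 for mean RNA.

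A C followed by 6 U (CTTTTTT as DNA, sense strand of the 3′ UTR) occurred in 81 of 181 members (44.8%) and in 42.8% of all listed genes. Among the raised genes it was present in ZNF585B (4 sites) and ZNF614 (1 site), the first site of each shown here with the match in capitals.
ZNF585B: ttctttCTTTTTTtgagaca
ZNF614: ttttttCTTTTTTagtttgt
Of the 34 members in the knockdown table with a site, 2 were higher and the median change was 0.07. Of the 46 without, 4 were higher and the median was 0.06.

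The RNA changes of the 2 comparisons, which share no library, were set against each other over the 79 members in both tables. No gene passed in both, and across these genes Pearson r was 0.04 and Spearman rho 0.03, the same as the 0.04 and 0.03 over all 8956 shared transcripts. ZNF302 was also higher in both LM2 libraries, at 59.2 and 64.7 against 42.1 and 35.0 in parental cells (0.68 ± 0.21, limma adjusted p = 0.0601). ZNF91 was at 78.6 and 74.9 in parental and 77.0 and 129 in LM2 libraries, with overlap. ZNF585B and ZNF614 were lower in both LM2 libraries than in both parental ones, by 0.29 ± 0.16 and 0.33 ± 0.20, without passing the test. ZNF114 was listed in the LM2 table alone.

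**Figure D4:**
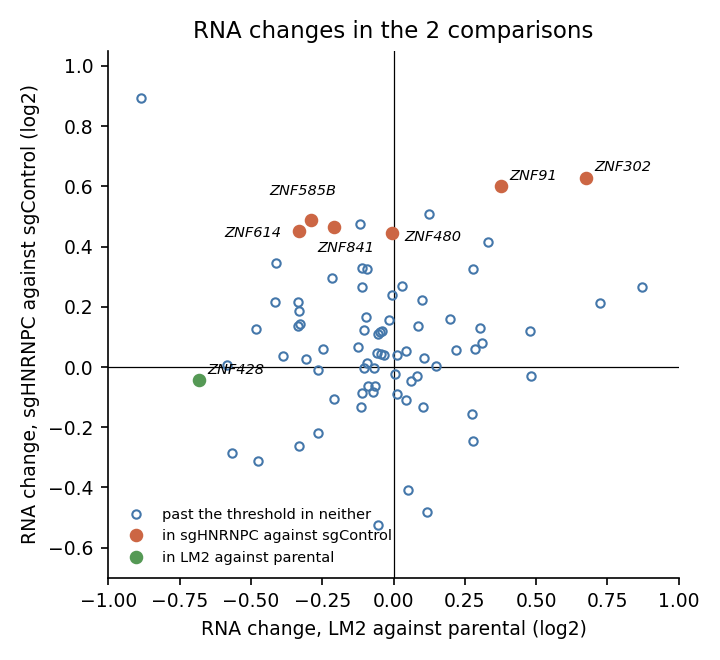
RNA change (log2) after HNRNPC knockdown against RNA change in LM2 for the 79 zinc finger genes in both tables, 1 point per gene. The 6 genes raised in the knockdown spread from −0.33 to 0.68 on the LM2 axis.

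Translation was read as TE, the RPF value over the RNA value of the same lysate, on the log2 scale. In parental and LM2 cells the median zinc finger mRNA carried fewer footprints for its RNA than the median gene. In parental cells the median log2 TE was −3.51 over the 31 members tested and −2.996 over all 8393 genes, and 24 of the 31 (77.4%) lay below the median of all. In LM2 cells the medians were −3.39 and −2.95, and 20 of 31 lay below. With no minimum, over 180 members, the gap was −0.17 in parental and −0.22 in LM2 cells, with 105 and 106 members below the median of all. In sgControl and sgHNRNPC cells, where most members had an RPF value near the added value of 1, the gap over 80 members with no minimum was −0.59 and −0.66, with 56 and 57 below.

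The members with the lowest TE in parental cells were ZNF8, ZNF562 and ZNF787. ZNF8 RNA was 1155 and 1298 while its RPF values were 8.84 and 6.90, a log2 TE of −7.12 ± 0.34 (SD, n = 2) at the 0.214 percentile of all genes. ZNF8 overlaps the readthrough gene ZNF8-ERVK3-1 on the same strand. ZNF562 and ZNF787 were at −4.98 ± 0.51 and −4.93 ± 0.48, at the 5.47 and 6.16 percentiles. The highest were ZFP36 (−1.83 ± 1.52, its RPF values being 4.75 and 25.7), ZNF724 (−2.32 ± 0.06) and ZNF121 (−2.42 ± 0.04), between the 68.6 and 83.7 percentiles. ZNF724 and ZNF562 share 89.6% and 20.7% of their coding 30-mers with other mRNAs, so their TE is uncertain. In sgControl cells the tested members were ZNF460 (−4.91 ± 0.11, 24.1 percentile) and ZNF574 (−2.50 ± 0.30, 94.5 percentile).

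**Figure D5:**
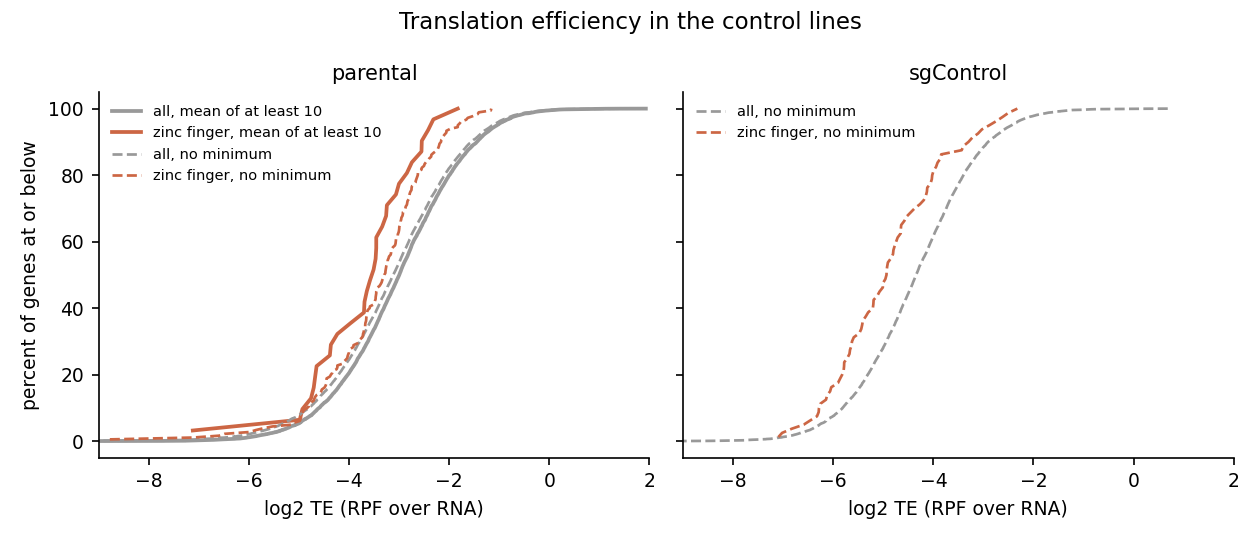
Cumulative share of genes (percent) against log2 TE in parental (left) and sgControl cells (right), for the zinc finger genes of chromosome 19 and all genes. Solid lines are genes with a mean of at least 10 in RPF and RNA, drawn on the left only since 2 members passed on the right, and dashed lines have no minimum. The solid curve of the zinc finger genes has its median at −3.51, against −2.996 for all genes.

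No member passed the test for footprints or for TE. Between LM2 and parental cells 0 of 31 members were called in RPF (background 5% of genes higher and 7.03% lower) or in TE (background 0.0357%). An unadjusted p under 0.05 was reached by 2 members in each limma test, beside 2065 (RPF) and 455 (TE) of all 8393 genes. Logistic regression on the pooled values, the approach of the study's methods, also called 0 of 31 in TE against a background of 2.16%. The median TE change was 0.21 for members and 0.03 for all genes, with a median SE of 0.34 for members, so single changes of this size could not be told from the spread between replicates. The gap of 0.18 between these medians was 0.057 and 0.023 without parental replicates 1 and 2, 0.074 and 0.27 without LM2 replicates 1 and 2, and 0.037 with no minimum. After HNRNPC knockdown neither ZNF460 nor ZNF574 was called. Their RPF differences were 0.17 and −0.28 (background 0.0233% of 4283 genes) and their TE differences 0.25 ± 0.31 and 0.24 ± 0.39 (background 0% by limma, with 332 genes at an unadjusted p under 0.05, and 0.257% by logistic regression).

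Of the members whose TE replicates did not overlap between the lines, only those with the largest rises and falls are given. How many members, or how many of all genes, were without overlap was not counted. ZNF8 RPF values were 8.84 and 6.90 in parental and 14.7 and 17.8 in LM2 libraries, against RNA of 1155, 1298, 1182 and 948. The TE difference was 1.17 ± 0.26 (limma adjusted p = 0.423). ZNF581 RPF values were 7.81 and 17.2 in parental and 16.1 and 17.9 in LM2 libraries, with a TE difference of 0.98 ± 0.45. ZNF417, a KRAB protein that binds HERV-K sequences, had RPF values of 15.5 and 11.6 in parental and 7.29 and 7.85 in LM2 libraries. Its TE difference was −0.72 ± 0.40 and its RNA values overlapped. ZNF417 shares 78.6% of its coding 30-mers with other mRNAs, so these values are uncertain. ZNF850 had a TE difference of −0.46 ± 0.41.

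The proteins that KRAB factors work through were read from a fixed list of 18 genes. All 18 were listed in the LM2 table, where 2 were higher and 1 lower in RNA, beside 6.61% and 10% of all transcripts. HDAC1, a deacetylase of the NuRD complex, fell by 0.81 ± 0.11 (1840 and 1721 in parental, 1058 and 973 in LM2, limma adjusted p = 0.00282), and its RPF values fell as well. CHD3, the NuRD remodeller that TRIM28 contacts, rose by 0.50 ± 0.11 at 1716 and 1654 against 2383 and 2392. Its RPF values rose as well. Of the 16 genes of the list tested in RPF, 1 was higher and 1 lower, beside 5% and 7.03% of all genes. DNMT3A, a de novo DNA methyltransferase, rose by 0.57 ± 0.16. TRIM28 itself was at 5637 and 5460 in parental and 5736 and 5749 in LM2 libraries (0.05 ± 0.12), and SETDB1 was at 177 and 224 against 189 and 211.

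For the knockdown, 17 of the 18 were listed, with 1 higher and 3 lower in RNA, beside 3.41% and 6.64% of all transcripts. TASOR, a subunit of the HUSH silencing complex, was at 871 and 888 in sgControl and 1037 and 1050 in sgHNRNPC libraries and rose by 0.25 ± 0.06. UHRF1 and DNMT1, which maintain DNA methylation, fell by 0.39 ± 0.06 and 0.21 ± 0.05, and CHD3 fell by 0.25 ± 0.06. TRIM28 was at 868 and 781 against 741 and 743 (−0.15 ± 0.06, limma adjusted p = 0.127). Of this list, 16 genes were tested for TE in LM2 and 14 in the knockdown, and 0 passed in either. Over all genes, 3 of 8393 passed in LM2 and 0 of 4283 in the knockdown.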

How the data were processed

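RPF and RNA libraries of parental MDA-MB-231, LM2, sgControl and sgHNRNPC cells were analysed, 2 biological replicates each, grouped by sample title. The authors trimmed reads with cutadapt 2.3, aligned them with Bowtie2 2.3.5 to mRNA sequences, with the longest-CDS isoform standing for each gene, and scaled counts by median-of-ratios size factors for each kind of library. The deposited values are this normalised signal per transcript. RPF values, unlike RNA values, fall on no common step; the methods offer a correction for ribosome stalling before scaling, not stated for these files. The submitters' processing notes name hg38. RNA libraries came from a stranded kit. The treatment of reads that match several mRNAs and whether counting used strand are not given in the sources used here.

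Transcripts were matched to GENCODE release 44 (97.9% of 10823), which gave symbols, positions and sequences. Values were tested as log2(value + 1) with limma 3.58.1 (R 4.3.3; lmFit, eBayes with trend, Benjamini-Hochberg over all transcripts of a table). RNA was tested over all listed transcripts, and RPF and TE (the interaction of line and kind of library) over transcripts whose mean reached 10 in both kinds. Fold changes are on the log2(value + 1) scale, which understates those of low values. Scripts were tested on simulated data. Correlations and figures used Python 3.11.15 with scipy 1.17.1 and matplotlib 3.10.9. Alternatives varied the added value, minimum, scaling, replicate block, shared sequence and libraries used. Genes were named by role, by call and by extreme TE; ZNF441, ZNF181, ZNF296, ZNF844, ZNF574 and the clusters were chosen after values were seen. The members and lists were chosen with earlier results of these data known. ZNF382 was in neither table.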

Additional observations from a re-analysis of the deposited data

How the results depend on the processing

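Each result was recomputed with 1 choice changed at a time. The labels tie replicate numbers to no shared batch, and 2 pairs cannot show a pairing. Replicate differences of the 2 lines correlated at 0.234 (RNA) and 0.0443 (RPF) in the LM2 table and at −0.00377 and 0.0281 in the knockdown table. With the replicate number as a block, 4 members were higher and 6 lower in LM2 RNA, and 6 were higher and 1 lower in knockdown RNA, beside 1019 and 1530, and 330 and 634, over all transcripts. The block changed no RPF or TE count of members. Over all genes it gave 544 higher and 756 lower in LM2 RPF, in place of 420 and 590. LM2 TE had 3 higher and 2 lower with it, in place of 2 and 1, and knockdown RPF had 4 and 8, in place of 1 and 0.

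Scaling libraries to equal totals gave 4 higher and 1 lower in LM2 RNA, beside 1398 and 674 over all transcripts. In the knockdown it gave 5 higher and 1 lower, beside 227 and 657. It turned the LM2 differences of ZNF274 (0.13) and ZFP36 (0.049). It also ended the calls of ZNF428 (−0.51, limma adjusted p = 0.0519) and ZNF614 (0.43, limma adjusted p = 0.0619). Requiring a mean of 10 in RPF and RNA left 1 lower of 31 in LM2 RNA, beside 792 of all 8393 transcripts. In knockdown RNA it left 0 higher and 1 lower of 2, beside 202 and 482 of 4283. A minimum mean RNA of 50 gave 1 lower of 70 in the knockdown, beside 624 of 8149, and members with at most 20% shared 30-mers gave 3 higher of 52. With no minimum, 1 member was higher and 2 lower in LM2 RPF, beside 384 and 547 of 10799 transcripts. The cause of these shifts was not tested.

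With 1 library left out, members called in LM2 RNA ranged from 0 to 17 higher and from 1 to 19 lower, their median minus that of all from −0.11 to 0.16, and the difference of ZNF146 from −0.17 to 0.20. In the knockdown, fewer members and fewer of all transcripts were called higher with any 1 library left out, with a median gap of 0.021 to 0.14. In LM2 RPF the gap ran from −0.0088 to 0.17.

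The TE gap between members and all genes stayed negative in parental and LM2 cells. In parental cells it was −0.17 with no minimum, −0.19 per kb (RPF per kb of coding sequence over RNA per kb of mRNA) with no minimum, a setting chosen after seeing the data, and −0.80 to −0.44 with 1 library left out. In LM2 cells it was −0.16 with an added value of 5, −0.22 with no minimum, −0.18 per kb with and without the minimum, −0.23 over members with at most 20% shared 30-mers, and −0.28 to −0.24 with 1 library left out. In sgControl and sgHNRNPC cells the gap over ZNF460 and ZNF574 was 0.51 and 0.71, and 0.16 and 0.37 per kb. It turned to −0.59 and −0.66 over 80 members with no minimum and to −0.52 and −0.52 per kb with no minimum.

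Tests on counts (edgeR, DESeq2) were planned and not run. The RNA values are whole multiples of 1 step per library, but read counts were not rebuilt from them, and the RPF values fall on no step. Low RPF values limit TE to 31 and 2 members, and 2 libraries per group limit every call.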
